A study of Homo sapiens with 3 samples.

Results

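Receptor tyrosine kinases are the cell surface receptors through which growth factors, ephrins and some Wnt proteins act. The 51 genes described here were taken by symbol from a count table of 57773 Ensembl gene IDs, in which each symbol matched 1 ID. They were measured by sequencing polyadenylated RNA of the established human line NB4, derived from acute promyelocytic leukaemia with the PML-RARA fusion. The groups were ARID1B shRNA (2 libraries, one with hairpin 2 and one with hairpin 3) and non-target control shRNA (1 library), so each hairpin stands for 1 library and the control has no replicate. The NB4 background, fusion included, was common to both groups, and the labels do not give the number of infections or cultures behind the libraries.

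A receptor of this family spans the membrane once, binds a ligand outside the cell and carries a tyrosine kinase domain inside it. Ligand binding brings receptors together, the kinase domains phosphorylate each other, and adaptor proteins dock on the phosphotyrosines and start Ras, PI3-kinase and phospholipase C signalling. In blood, FLT3 and KIT act in progenitors and CSF1R in monocytes and macrophages, and FLT3 is a frequent site of mutation in acute promyelocytic leukaemia. A few members, EPHB6 and PTK7 among them, bind partners but have no working kinase.

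Library totals lay between 59997475 and 62954803 counts, and 28171 to 29270 genes had a count. ARID1B, a subunit of the BAF chromatin remodelling complex and the target of the hairpins, had 2209 counts under hairpin 2 and 2234 under hairpin 3, against 5268 in the control library (log2 fold change -1.23 ± 0.125 SE, adjusted p = 1.4e-05 in edgeR's quasi-likelihood test, adjusted by Benjamini and Hochberg's method). Levels within a gene are given as CPM (counts over library size, scaled by TMM factors). Of 8 promyelocyte markers, MPO had 13900 CPM under hairpin 2, 11900 CPM under hairpin 3 and 11000 CPM in the control, ELANE was near absent with 4 and 1 counts in the knockdown libraries and 10 in the control, and the other 6 had at least 27.8 CPM in each library. Within that list the granule protease gene PRTN3 rose and CTSG and MS4A3 fell. The stem cell marker CD34 had 0 counts in each library.

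With ARID1B silenced, FGFR1, EPHB4, FLT3, EPHB6 and FGFR3 fell and ROR2 rose. FGFR1, a fibroblast growth factor receptor, stood at about 30% of its control level under both hairpins, and ROR2, a receptor for Wnt5a-type ligands, was 7.21 times as high on average. The other receptors that NB4 cells express, among them RET, EPHA1 and IGF1R at the highest levels, did not pass the test. Of 31 members that passed the filter, 6 were called (19.4%), 5 lower and 1 higher, where 8.7% of the 20382 genes tested were called in either direction (edgeR, adjusted p under 0.05). By direction, 3.21% of genes were called lower and 5.49% higher, against 4.17% lower and 4.86% higher with upper quartile factors and 1.66% lower and 4.49% higher with DESeq2. The member count was 7 with upper quartile factors (9.03% of all genes), 8 with library size alone (10.1%) and 8 with edgeR's legacy fit (10.1%). It was 6 with robust empirical Bayes (7.23%), 5 with DESeq2 (6.15%), 5 at a mean of at least 1 CPM (6.42%) and 5 against a fold change of 1.5 (2.24%). With no filter on low counts edgeR called 0 members and 0% of genes, with 13 members and 3218 genes at an unadjusted p under 0.05, and the adjusted p of the 6 members then lay between 0.465 and 0.47. The median log2 fold change was -0.19 over the 31 members and -0.01 over the genes tested. With 2 libraries against 1, the spread in this test came from hairpin 2 against hairpin 3, and the single control library was assumed to be as variable. The fit had 1 residual and 14.8 prior degrees of freedom, so the variance of each gene was drawn mostly from that of all genes. In RNA from a whole culture, fewer cells of a type and less RNA per cell cannot be told apart.

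At a mean of at least 1 CPM over the 3 libraries, 21 of the 51 members were expressed, and 19 of them reached 1 CPM in every library. The exceptions were ROR2, under 1 CPM in the control, and FGFR3, under 1 CPM with each hairpin. FGFR3 was the member just inside this limit, with a mean of 1.09 CPM, and DDR2, a collagen receptor, the one just outside it, with 0.602 CPM. A further 10 members passed the filter of the test at lower levels, and the other 20 had at most 6 counts in any library. The 4 members with 0 counts throughout were EGFR, EPHA2, EPHA3 and MUSK, for which the upper limit, set at 3 counts, corresponds to 0.0499 CPM under hairpin 2, 0.0481 CPM under hairpin 3 and 0.0483 CPM in the control. Together the 51 genes had 413 CPM under hairpin 2, 425 CPM under hairpin 3 and 533 CPM in the control.

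Levels of different genes were compared per exon length, as TPM, which scales each library's length-corrected counts to the same sum. RET, the receptor for GDNF-family ligands, was at the top, with 35.1 TPM under hairpin 2, 32.6 under hairpin 3 and 32.9 in the control. EPHA1, an ephrin-A receptor, had 30.2, 25 and 27.8 TPM in the same order, so its range lay below that of RET in all 3 libraries. The insulin-like growth factor receptor IGF1R followed with 17, 16 and 19 TPM. RYK, a Wnt co-receptor, had 12.4, 11.9 and 16.5 TPM, and LTK, a close relative of ALK, 13.1, 12.2 and 10.3 TPM, so these neighbours in the order overlapped. EPHB4 changed its place in the order, with 4.99 and 7.2 TPM in the knockdown libraries and 18.5 TPM in the control, where only RET, EPHA1 and IGF1R stood above it.

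**Figure D1:**
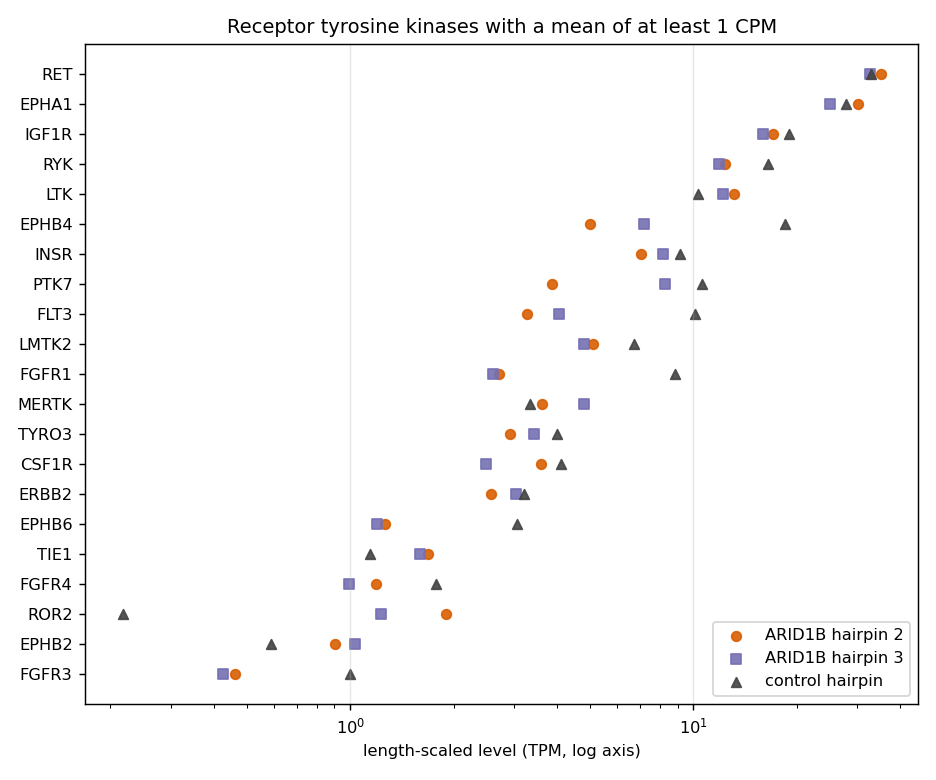
Length-scaled level (TPM, log axis) of the 21 members with a mean of at least 1 CPM, 1 point per library, ordered by the mean. The points of RET, EPHA1 and IGF1R lie close together in the 3 libraries, EPHB4, FLT3, FGFR1 and EPHB6 have the 2 hairpin libraries to the left of the control, and ROR2 has them to the right.

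The 5 called members with an entry in the RefSeq promoter table (GRCh38.p14) are shown here by the 250 bases before their listed start, because these are the genes that moved with ARID1B silencing and their promoters differ in CpG content. Capitals mark matches, searched on both strands. The GC box, to which SP1-type factors bind, was searched as GGGCGG. The box bound by NF-Y was searched as CCAAT, the letters it is named for. Of the core promoter elements, the one that TBP binds was searched as TATAAA. Motifs of blood transcription factors were added, with GATAA standing for the GATA family in erythroid and mast cells. For the RUNX family the core was TGTGGT, and the ETS family, which includes PU.1, was searched as CCGGAA. Matches did not overlap one another, and the start that NB4 cells use was not measured.
FLT3 (chr13:28100577-28100826, minus strand): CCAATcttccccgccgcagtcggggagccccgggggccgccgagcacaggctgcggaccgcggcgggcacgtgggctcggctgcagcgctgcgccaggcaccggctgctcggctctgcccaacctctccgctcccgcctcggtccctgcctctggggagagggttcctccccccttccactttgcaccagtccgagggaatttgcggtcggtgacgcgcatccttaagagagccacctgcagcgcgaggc
FGFR3 (chr4:1793043-1793292, plus strand): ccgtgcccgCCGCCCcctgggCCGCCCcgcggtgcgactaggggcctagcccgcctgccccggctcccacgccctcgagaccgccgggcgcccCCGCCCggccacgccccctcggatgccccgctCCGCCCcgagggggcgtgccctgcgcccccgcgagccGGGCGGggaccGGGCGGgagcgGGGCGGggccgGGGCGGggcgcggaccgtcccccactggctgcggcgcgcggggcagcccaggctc
EPHB4 (chr7:100827524-100827773, minus strand): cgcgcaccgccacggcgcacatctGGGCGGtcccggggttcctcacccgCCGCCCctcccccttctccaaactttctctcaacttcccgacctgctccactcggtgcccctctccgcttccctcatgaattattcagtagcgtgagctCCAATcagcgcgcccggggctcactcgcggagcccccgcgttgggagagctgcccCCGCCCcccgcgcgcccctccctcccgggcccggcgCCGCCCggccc
EPHB6 (chr7:142862506-142862755, plus strand): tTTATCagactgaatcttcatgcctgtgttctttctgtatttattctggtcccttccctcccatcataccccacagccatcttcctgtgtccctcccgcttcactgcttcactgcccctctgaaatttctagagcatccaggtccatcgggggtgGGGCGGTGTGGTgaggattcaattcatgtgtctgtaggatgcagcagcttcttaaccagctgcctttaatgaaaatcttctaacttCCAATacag
ROR2 (chr9:91950229-91950478, minus strand): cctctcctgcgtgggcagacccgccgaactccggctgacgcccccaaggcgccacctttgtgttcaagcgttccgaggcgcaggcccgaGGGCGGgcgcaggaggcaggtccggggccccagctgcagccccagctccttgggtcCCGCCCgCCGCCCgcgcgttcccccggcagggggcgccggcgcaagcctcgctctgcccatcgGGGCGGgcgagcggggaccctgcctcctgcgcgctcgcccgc
The windows of FGFR3, EPHB4 and ROR2 hold 8, 4 and 4 GC boxes, that of FLT3 holds 0, and that of EPHB6 holds 1. A GC box is found in 42.6% of 35114 such windows. A CCAAT box lies in the windows of FLT3, EPHB4 and EPHB6 and in 32% of all windows. Of these 5 windows, that of EPHB6 alone has a GATA or a RUNX core, each present once, which 20.4% and 11% of all windows hold. The windows of EPHB6 and FLT3 have 3 and 26 CpG dinucleotides, and those of EPHB4, ROR2 and FGFR3 have 29, 32 and 40. Taking the window with most CpGs for each gene, the median was 25.5 in 20 expressed members (range 1 to 48), 20.5 in 26 members under 1 CPM (3 to 42) and 12 in 27303 genes of the table. A match of letters in these windows says nothing of whether a factor binds there.

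Among the class III receptors, FLT3, the receptor for FLT3 ligand, had 291 counts under hairpin 2 and 383 under hairpin 3, against 932 in the control library. Both knockdown libraries lay well below the control, hairpin 2 lower than hairpin 3. This was 5.49 ± 0.923 CPM (SD, n = 2) in the knockdown libraries and 15.0 CPM in the control, a log2 fold change of -1.45 ± 0.185 (SE; edgeR adjusted p = 9e-05). Relative to the control, FLT3 mRNA stood at 32.2% with hairpin 2 (28.2 to 36.8, exact 95% interval) and 40.9% with hairpin 3 (36.2 to 46.2). Such intervals cover counting error only, as reads without molecular identifiers are not independent molecules.

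CSF1R, the receptor for CSF1 and IL-34, had 396 and 290 counts under hairpins 2 and 3 and 468 in the control. Both hairpin libraries were below the control, hairpin 3 farther than hairpin 2, and the log2 fold change of -0.42 ± 0.219 did not pass (edgeR adjusted p = 0.295). KIT, the stem cell factor receptor that mast cells depend on, had 6 and 6 counts in the knockdown libraries and 3 in the control, too few to test. Genes that mark mast cells and basophils moved while KIT stayed near the floor of detection. Of 5 tested markers 4 rose, HDC, TPSB2, CPA3 and TPSAB1, where 5.49% of all genes tested were called higher. The list summed to 356 CPM under hairpin 2, 183 CPM under hairpin 3 and 16 CPM in the control. Most of that sum is HDC, with 340 CPM under hairpin 2, 162 CPM under hairpin 3 and 10.7 CPM in the control. TPSB2 had 5.99 and 6.92 CPM in the knockdown libraries and 1.4 CPM in the control, and CPA3 had 2.08 and 2.25 CPM in the knockdown libraries and 0.564 CPM in the control. TPSB2 and TPSAB1 are near-identical, and counts may be split between them. FCER1A, a defining basophil and mast cell gene of that list, was at 0 counts in each library. Whether the markers have a part in the receptor changes was not tested. The PDGF receptors PDGFRA and PDGFRB had at most 1 and 29 counts.

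Among the fibroblast growth factor receptors, FGFR1 had 807 counts under hairpin 2 and 818 under hairpin 3, against 2699 in the control. The hairpins differed by far less from each other than from the control. In CPM the level was 13.3 ± 0.21 (SD, n = 2) in the knockdown libraries and 43.5 in the control, a log2 fold change of -1.71 ± 0.137 (edgeR adjusted p = 1.5e-06). FGFR1 stood at 30.9% of the control under hairpin 2 (28.5 to 33.4) and 30.2% under hairpin 3 (27.9 to 32.7). The antisense transcript AC087623.1 shares 1.1% of the exon length of FGFR1 and had 61 and 52 counts in the knockdown libraries and 194 in the control. LETM2, also on the opposite strand, shares 1.0% and had 63 and 48 counts in the knockdown libraries and 108 in the control. Exons of other members overlap other genes too, such as those of EPHB4 with SLC12A9, EPHA1 with ZYX and ERBB2 with MIEN1.

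FGFR3 had 48 and 47 counts in the knockdown libraries and 107 in the control. The knockdown libraries were nearly equal and both below the control, with a log2 fold change of -1.15 ± 0.327 (edgeR adjusted p = 0.0382), at 46.3% (32.2 to 65.7) and 43.8% (30.4 to 62.2) of the control. This call passed in 4 of 8 alternative analyses and was lost with DESeq2 (adjusted p = 0.436), at a mean of at least 1 CPM (0.0656) and against a fold change of 1.5 (0.353), as well as with no filter. FGFR4 had 123 and 109 counts in the knockdown libraries and 190 in the control. Both knockdown libraries were lower, but its log2 fold change of -0.69 ± 0.264 did not pass (edgeR adjusted p = 0.134). FGFR2 had at most 2 counts.

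Of 10 ephrin receptors 4 were expressed, EPHA1, EPHB4, EPHB2 and EPHB6, and 2 of these fell. EPHB4, the receptor for ephrin-B2, had 687 counts under hairpin 2 and 1051 under hairpin 3, against 2626 in the control. Both were lower than the control, and hairpin 2 was lower than hairpin 3, at 0.678 of its level (0.615 to 0.747). In CPM the level was 14.1 ± 3.84 (SD, n = 2) in the knockdown libraries and 42.3 in the control (log2 fold change -1.58 ± 0.178, edgeR adjusted p = 3.2e-05), or 27.0% (24.8 to 29.4) and 39.9% (37.1 to 42.8) of the control under hairpins 2 and 3.

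EPHB6, the ephrin receptor without kinase activity, had 144 and 145 counts in the knockdown libraries and 360 in the control. The hairpins matched closely, with 2.36 ± 0.0484 CPM (SD, n = 2) in the knockdown libraries and 5.80 CPM in the control, and the log2 fold change was -1.30 ± 0.225 (edgeR adjusted p = 0.00145). EPHB2, whose ligands are also B-type ephrins, had 242 and 292 counts in the knockdown libraries and 163 in the control. It lay above the control with each hairpin, at 1.53 (1.25 to 1.88) and 1.78 (1.47 to 2.17) times its level, and its log2 fold change of 0.73 ± 0.244 missed the threshold (edgeR adjusted p = 0.0806). EPHA1 had 3059 and 2680 counts in the knockdown libraries and 2909 in the control. It was the expressed member for which the hairpins lay on opposite sides of the control, with a log2 fold change of 0.00 ± 0.14 (edgeR adjusted p = 0.994). EPHB1 and EPHB3 were tested at low counts and did not pass, with 38 and 33 counts in the knockdown libraries and 26 in the control for EPHB1, and 26 and 15 counts in the knockdown libraries and 6 in the control for EPHB3. EPHA4 and EPHA7 had at most 2 counts.

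Among the receptors that bind Wnt proteins, ROR2 had 237 counts under hairpin 2 and 162 under hairpin 3, against 28 in the control. Both knockdown libraries were several times above the control and differed from each other by 1.52 times (1.24 to 1.86). The level was 3.27 ± 0.949 CPM (SD, n = 2) in the knockdown libraries and 0.451 CPM in the control, with a log2 fold change of 2.85 ± 0.397 (edgeR adjusted p = 2e-04). The ratio to the control was 8.74 under hairpin 2 (5.89 to 13.4) and 5.76 under hairpin 3 (3.84 to 8.94). ROR2 passed the expression limit through the knockdown libraries. Its paralogue ROR1 had at most 1 count, and WNT5A, the best known ligand of ROR2, had 0 counts in each library.

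PTK7, a Wnt co-receptor with an inactive kinase domain, was the member on which the hairpins differed most among those expressed. It had 747 counts under hairpin 2, 1687 under hairpin 3 and 2118 in the control. Hairpin 2 stood at 36.4% of the control (33.5 to 39.6) and hairpin 3 at 79.3% (74.4 to 84.6), so hairpin 2 had 0.459 of the hairpin 3 level (0.421 to 0.501). At least 2-fold between the hairpins was found in 0.775% of 14977 genes with a mean of at least 1 CPM. The log2 fold change of PTK7 over both hairpins, -0.79 ± 0.27, did not pass (edgeR adjusted p = 0.0887) but did with library size alone (0.018) and with the legacy fit (0.0292). RYK had 2137 and 2177 counts in the knockdown libraries and 2939 in the control. Both were about equally below the control, and the log2 fold change of -0.43 ± 0.13 lay just outside the threshold (edgeR adjusted p = 0.0539). It passed with upper quartile factors (0.0279), library size alone (0.035) and the legacy fit (0.0403).

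**Figure D2:**
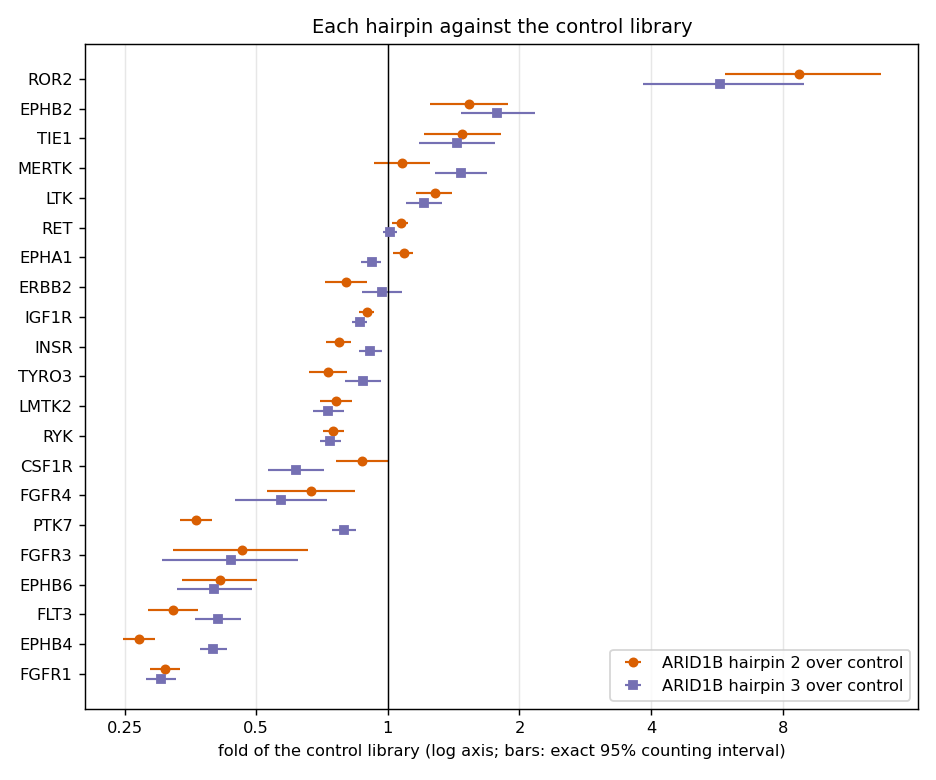
Level under each hairpin as a fold of the control library (log axis) for the 21 expressed members, with exact 95% counting intervals, ordered by the mean log ratio. FGFR1, EPHB4, FLT3, EPHB6 and FGFR3 lie below 0.5 with both hairpins, ROR2 lies above 5 with both, and PTK7 has 0.364 under hairpin 2 and 0.793 under hairpin 3.

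Set against the control one hairpin at a time, 5 of the 21 expressed members were at least 2-fold lower under both hairpins and 1 was at least 2-fold higher under both. Over the 14977 genes with a mean of at least 1 CPM these shares were 0.861% lower and 2.24% higher, or 3.1% in either direction. The 6 were the members called in edgeR, and for all 6 both counting intervals left out 1. Of them, ROR2 reached the limit of 1 CPM through the knockdown libraries and FGFR3 through the control, where each is high. FGFR1, EPHB4, FLT3 and EPHB6 were above 1 CPM in every library. Such intervals also left out 1 at small differences in well-counted members that edgeR did not call. IGF1R, for example, stood at 89.4% (86.1 to 92.8) and 86.2% (83 to 89.5) of the control under hairpins 2 and 3. Both hairpins were compared with the same control library.

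The other expressed members, of the insulin, RET, TAM, EGF, ALK and angiopoietin receptor families, did not pass in edgeR. IGF1R had 5072 and 5069 counts in the knockdown libraries and 5859 in the control, a log2 fold change of -0.19 ± 0.127 (edgeR adjusted p = 0.451). The insulin receptor INSR had 1576, 1931 and 2109 counts under hairpin 2, hairpin 3 and the control, with -0.25 ± 0.145 on the same scale. Each of these receptors was thus below the control with both hairpins, but did not pass. RET had 5185 and 5107 counts in the knockdown libraries and 5024 in the control, and its log2 fold change of 0.06 ± 0.128 was the nearest to 0 among expressed members after that of EPHA1.

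The TAM receptors TYRO3, MERTK and AXL bind GAS6 and protein S and serve in the uptake of dying cells. MERTK had 363 and 513 counts in the knockdown libraries and 347 in the control, with a log2 fold change of 0.35 ± 0.22. TYRO3 had 683 and 853 counts in the knockdown libraries and 967 in the control, with -0.31 ± 0.167. AXL had 2 and 6 counts in the knockdown libraries and 16 in the control, and its log2 fold change of -1.95 ± 0.723 did not pass (edgeR adjusted p = 0.12). AXL passed the filter through the control, where it is high, so no support is drawn from its direction. TYRO3 and MERTK did not share a direction, and no call was made for any of the 3 receptors.

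ERBB2, the EGF-family receptor without a known ligand, had 569 and 712 counts in the knockdown libraries and 732 in the control (log2 fold change -0.17 ± 0.176). Its partner ERBB3 had 7 and 5 counts in the knockdown libraries and 17 in the control, and EGFR and ERBB4 had at most 4. LTK had 982 and 965 counts in the knockdown libraries and 794 in the control, a log2 fold change of 0.31 ± 0.159. LMTK2, a membrane kinase that acts in endosome traffic, had 1000 and 997 counts in the knockdown libraries and 1358 in the control, a log2 fold change of -0.42 ± 0.147 (edgeR adjusted p = 0.0942). Hairpins 2 and 3 gave nearly equal counts for LTK and for LMTK2. STYK1 had 22 and 15 counts in the knockdown libraries and 28 in the control and did not pass.

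Among the vascular receptors, TIE1, an endothelial co-receptor of the angiopoietin system, had 240 and 243 counts in the knockdown libraries and 168 in the control. Both lay above the control, at 1.48 (1.21 to 1.81) and 1.44 (1.18 to 1.76) times its level, and the log2 fold change of 0.54 ± 0.241 did not pass (edgeR adjusted p = 0.207). The VEGF receptors FLT1 and FLT4 had 46 and 38 counts and 29 and 29 counts in the knockdown libraries, against 24 and 11 in the control, and neither passed. KDR had at most 1 count and TEK at most 3. The list of 8 endothelial markers, which includes TEK and KDR, had 7 genes matched to an ID, PECAM1 being the one without a match. Of the 7, 4 passed the filter. The 7 summed to 1.08 CPM under hairpin 2, 1.54 CPM under hairpin 3 and 1.08 CPM in the control. CDH5 had 1 and 1 counts in the knockdown libraries and 0 in the control.

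**Figure D3:**
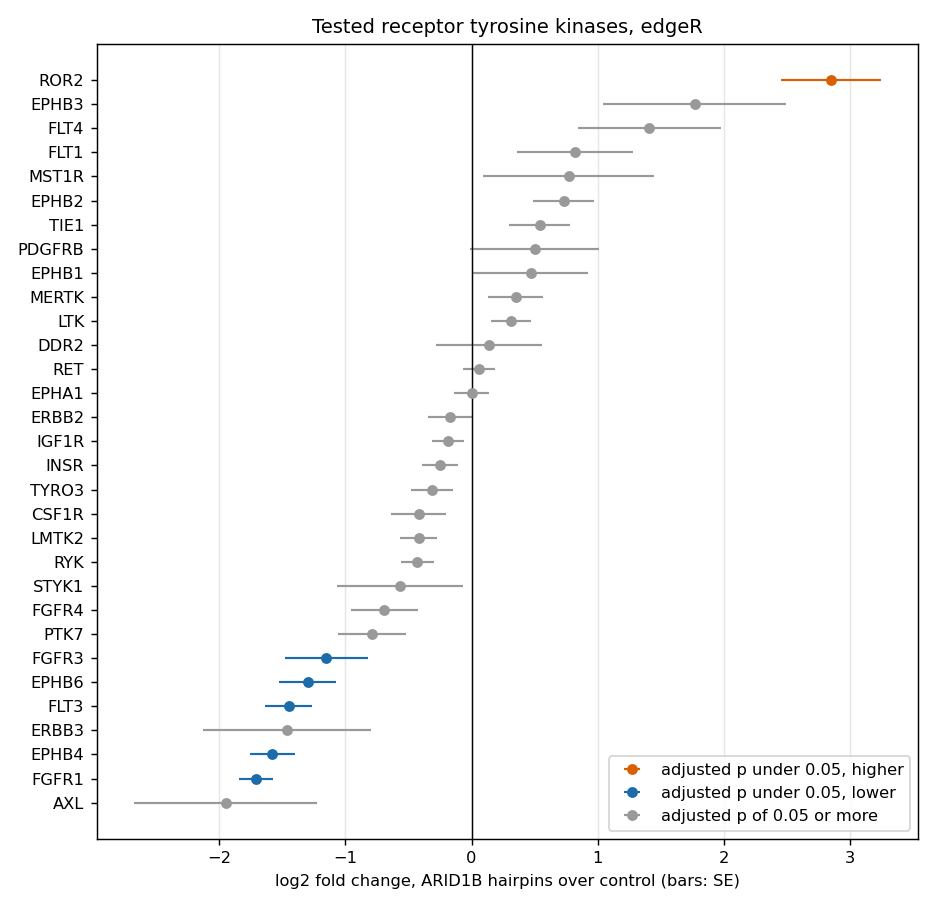
Log2 fold change of the ARID1B hairpins over the control with its standard error for the 31 tested members, ordered by size and coloured by the edgeR call. The 5 members called lower lie between -1.71 and -1.15, ROR2 lies at 2.85, and AXL, ERBB3, EPHB3 and FLT4 lie far from 0 with wide errors at 29 or fewer counts in each library. AXL and ERBB3 passed the filter through the control, and EPHB3 and MST1R through the knockdown libraries.

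MET, the receptor for HGF, had 0 and 1 counts in the knockdown libraries and 0 in the control, and its relative MST1R had 15 and 12 counts in the knockdown libraries and 8 in the control. The remaining members with at most 6 counts were DDR1, ALK, ROS1, INSRR, NTRK2 and NTRK3. INSRR had 1 and 5 counts in the knockdown libraries and 0 in the control.

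Of 68 ligands listed, 30 were tested, 2 rose and 3 fell, with a median log2 fold change of -0.39. Over all genes tested, 5.49% were called higher and 3.21% lower, and the median was -0.01. CSF1, the ligand of CSF1R, had 254 and 218 counts in the knockdown libraries and 104 in the control (log2 fold change 1.2 ± 0.273, edgeR adjusted p = 0.0102). HGF had 575 and 429 counts in the knockdown libraries and 261 in the control (0.97 ± 0.23). Both thus rose, while their receptors CSF1R and MET had the values given above. AGRN, the matrix protein that acts on MUSK through LRP4, fell (-0.77 ± 0.129), as did the ephrin EFNA3 (-0.89 ± 0.242) and VEGFB (-0.53 ± 0.145). The calls of EFNA3 and VEGFB passed in 4 of 8 alternatives each, those of CSF1 and HGF in 5 each, and that of AGRN in 6. FLT3LG had 124 and 161 counts in the knockdown libraries and 204 in the control, and its log2 fold change of -0.50 ± 0.259 did not pass (edgeR adjusted p = 0.298). The stem cell factor gene KITLG had at most 2 counts.

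Of 42 signalling partners, namely adaptors, docking proteins and PI3-kinase and phospholipase subunits, 35 were tested, 6 rose and 3 fell, with a median log2 fold change of -0.02. Beside these counts, 5.49% of all genes tested were called higher and 3.21% lower. The largest rises were in the docking protein DOK2 (1.39 ± 0.406), which had 229 and 112 counts in the knockdown libraries and 66 in the control, in the PI3-kinase regulatory subunit PIK3R3 (1.15 ± 0.159), with 1315 and 1361 counts in the knockdown libraries against 611 in the control, and in the docking protein GAB3 (0.67 ± 0.154). The call of DOK2 passed in 3 of 8 alternatives, and its level was 3.58 times the control under hairpin 2 and 1.69 times under hairpin 3. IRS2, the docking protein of the insulin and IGF1 receptors, fell to 8502 and 8608 counts in the knockdown libraries, against 14796 in the control (-0.77 ± 0.127, edgeR adjusted p = 8.9e-04). The adaptor SH2B2 also fell (-0.71 ± 0.212), a call that passed in 3 of 8 alternatives.

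Of 30 genes that restrain receptor signalling, 25 were tested, 8 rose and 2 fell, with a median log2 fold change of 0.09. The shares over all genes tested were 5.49% called higher and 3.21% called lower. SOCS1, a suppressor of cytokine signalling, had 99 and 74 counts in the knockdown libraries and 29 in the control (1.59 ± 0.414), a call that passed in 4 of 8 alternatives. SLA, an adaptor that lowers surface receptors through CBL, rose to 1131 and 945 counts in the knockdown libraries, against 420 in the control (1.33 ± 0.187). The phosphatases UBASH3B (0.87 ± 0.134) and PTPRJ (0.86 ± 0.167) rose as well. UBASH3A had 31 and 18 counts in the knockdown libraries and 1 in the control, or 32 times the control with hairpin 2 (5.33 to 1300, exact 95% interval) and 17.9 times with hairpin 3 (2.83 to 747). The 2 that fell were SOCS2 and the ubiquitin ligase CBLB, the call of CBLB passing in 3 of 8 alternatives. UBASH3A, SLA and SLA2 are best known from lymphocytes, and markers of T, NK and B cells summed to 61.4 CPM under hairpin 2, 46.5 CPM under hairpin 3 and 33.7 CPM in the control, with CD3D and NKG7 higher among 4 tested; their part in these changes was not tested.

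Of 20 co-receptors and sheddases 10 were tested, 3 rose and 1 fell, with a median log2 fold change of 0.25. Among all genes tested, 5.49% were called higher and 3.21% lower. The heparan sulphate proteoglycans SDC2 (1.85 ± 0.219) and SDC1 (1.51 ± 0.304), which present growth factors to their receptors, rose. SDC2 had 1067 and 801 counts in the knockdown libraries and 264 in the control. KL, the klotho co-receptor of FGFR1 for FGF23, had 36 and 25 counts in the knockdown libraries and 6 in the control, or 6.2 times the control with hairpin 2 (2.59 to 18) and 4.15 times with hairpin 3 (1.66 to 12.4), and FGF23 had 0 in each. KL and UBASH3A passed the filter through the knockdown libraries, where they are high. Their calls are included in the 3 co-receptors and the 8 inhibitors that rose, but no support is drawn from them. LRP4, the agrin receptor that partners MUSK, fell to 117 counts under hairpin 2 and 278 under hairpin 3, against 486 in the control (-1.28 ± 0.306, edgeR adjusted p = 0.0141). The call of LRP4 passed in 3 of 8 alternatives, and its hairpins differed from each other as those of PTK7 did, with hairpin 2 the lower.

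**Figure D4:**
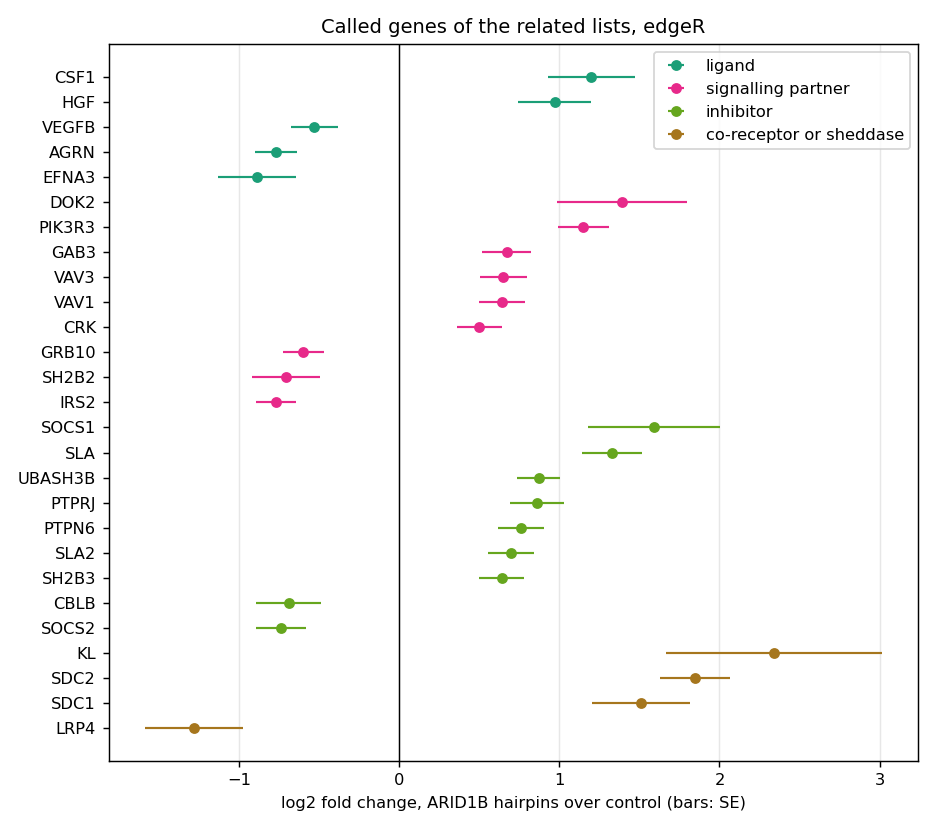
Log2 fold change of the ARID1B hairpins over the control with its standard error for the called genes of the 4 related lists, coloured by list, without UBASH3A, which had 1 control count. Of the inhibitors drawn SOCS2 and CBLB lie below 0, and SDC2, at 1.85, and KL, at 2.34, lie farthest above it. KL had 6 control counts and passed the filter through the knockdown libraries.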

How the data were processed

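The authors deposited whole-number read counts per Ensembl gene ID, not normalized. STAR, Cufflinks, featureCounts and hg19 are named per the submitters' processing notes; for versions, annotation release and use of strand, the sources used here say nothing. Names and exon lengths came from GENCODE 29, another build, so it gave no coordinates. It named 52338 IDs, and unnamed IDs (1.47% to 1.56% of counts) stayed in the totals.

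Genes were filtered with filterByExpr (minimum count 10, 20382 genes), scaled by TMM and tested two-sided in edgeR 4.0.16 (R 4.3.3; glmQLFit with legacy = FALSE, glmQLFTest) over the whole table, at a Benjamini-Hochberg adjusted p of 0.05. The fit had 1 residual degree of freedom and was tested on simulated data. Those data gave the control the same spread as the hairpins, so they could not check whether the single control library is as variable. P-values measure the spread between these samples only, which may be technical. Standard errors are log2 fold changes over the square root of F. Ratios of single libraries have exact 95% binomial counting intervals and no test. TPM was computed from union exon length. DESeq2 1.42.0 and other settings were alternatives.

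Members and lists were chosen with earlier results of these data known. By rule, members with a mean CPM of at least 1 or an edgeR call were named with full values, the other members with their counts, and up to 5 called genes of each related list with the largest change. Of genes outside that rule, SOCS2, CBLB and SLA2, fold changes of AXL, ligands without a call and marker genes were chosen after their values were seen.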

Additional observations from a re-analysis of the deposited data

How the results depend on the processing

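FGFR1, EPHB4, FLT3, EPHB6 and ROR2 kept their direction in all 8 alternative analyses and their call in 7 of them. With no filter on low counts edgeR called 0 members, 0 higher and 0 lower, and 0 of 32925 genes (13 members and 3218 genes at an unadjusted p under 0.05), and the ligands, signalling partners, inhibitors and co-receptors had 0 calls each; the legacy fit with the filter called 8 members and DESeq2 5. The counts of related genes depended on the setting more than those of the receptors. Ligands had 5 calls, 2 with DESeq2, 2 at a mean of at least 1 CPM and 0 against a fold change of 1.5. In the same order, 8.7%, 6.15%, 6.42% and 2.24% of all genes were called. Against that fold change the signalling partners had 1 of 9 calls, the inhibitors 2 of 10 and the co-receptors 2 of 4. The co-receptors also had 2 with DESeq2 and 2 at a mean of at least 1 CPM. The number of expressed members was 24 at a mean of at least 0.5 CPM, 20 at 2 CPM and 19 at 1 TPM, and was 21 without either hairpin. At 1.5-fold in place of 2-fold, 2 members were higher under both hairpins, ROR2 and EPHB2. Leaving out a hairpin library leaves 1 library against 1 and no test; the log2 fold change without hairpin 2 and without hairpin 3 was then that of the other hairpin, and no called member changed sign. No paired analysis was possible because there is 1 control library and the labels do not pair libraries. Depth limits the 20 members with at most 6 counts, for which no difference was detectable.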

Other observations

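Receptor tyrosine kinase genes outside the 51 were looked at after the results on the members were known, and those given here are not all of them. AATK, a membrane kinase related to LMTK2, had 70 and 24 counts in the knockdown libraries and 2 in the control, a ratio of 36.1 under hairpin 2 (9.64 to 304, exact 95% counting interval) and of 12 under hairpin 3 (2.97 to 104), and hairpin 2 had 3.02 times the level of hairpin 3 (1.88 to 5.03). LMTK3 had 953 and 712 counts in the knockdown libraries and 1003 in the control, with a log2 fold change of -0.25 ± 0.185 that did not pass (edgeR adjusted p = 0.513). EPHA5 and EPHA10 had 0 counts in each library, EPHA6 at most 1, and EPHA8 had 4 and 9 in the knockdown libraries and 5 in the control.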
